A study of Mus musculus with 19 samples.

Results

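The Rab genes are the protein-coding genes of the deposited table whose symbol begins with Rab and a digit. This rule found 56 of the 12629 genes measured. They comprise 50 Rab GTPases and 6 proteins named after a Rab that bind or regulate one (Rab3gap1, Rab3gap2, Rab3il1, Rab3ip, Rab11fip3 and Rab11fip5). By the compartment on which they act, they were divided into 6 early endosomal, 7 recycling, 12 ER and Golgi, 5 post-Golgi, 8 synaptic or regulated secretory and 8 late endosomal or lysosomal Rabs, 4 others and the 6 named proteins. Because the authors removed genes with few reads before deposit, the 56 genes are those that passed this filter and not every Rab of the genome. Their levels were measured by RNA-seq in GFP-positive sensory neurons sorted by FACS from dorsal root ganglia (DRGs), in 19 libraries of 4 groups. The ganglia were injected with AAV5-fGFP (GFP-naive, 5 libraries, and GFP-crush, 4 libraries), or with a pair of vectors, AAV5-kindlin1-GFP and AAV5-α9-V5 (α9k1-naive, 6 libraries, and α9k1-crush, 4 libraries). The crush groups also received a dorsal root crush, and all ganglia were collected 8 weeks later. The α9 subunit forms an integrin that binds tenascin-C, and kindlin-1 is an activator of integrins.

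The labels describe C57BL/6 mice, without an age, whereas the study's methods name adult male Lewis rats, and the reads were aligned to the mouse genome. Every group, the controls included, carried AAV5 and a GFP label, was dissociated enzymatically and was sorted. In the methods, α9 was driven by the CAG promoter and both fGFP and kindlin1-GFP by the CMV promoter. Since cells were sorted by GFP, the α9k1 libraries were selected for kindlin-1 and not for α9. Nothing in the labels says which libraries share an animal, so the p-values below measure the spread between these libraries.

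Rab GTPases are molecular switches that mark membranes. A guanine nucleotide exchange factor (GEF) loads a Rab with GTP, the active Rab recruits effectors that tether, move or fuse vesicles, and a GTPase-activating protein (GAP) switches it off. In neurons, Rab11 and Rab4 endosomes return receptors to the surface, Rab3 and Rab27 proteins sit on secretory and synaptic vesicles, and Rab7 marks late endosomes. Integrins are themselves carried by this system, since Rab21 and Rab5 take part in their endocytosis, and Rab4, Rab11 and Rab35 in their recycling.

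Libraries held 36.4 to 87.6 M read pairs, of which 47.5% to 54.1% were aligned, and 3.87% to 4.05% of aligned bases differed from the mouse reference. Values are log2 expression, normalised by the authors for gene length and depth, so levels of different genes are on 1 scale, but the counting error behind a value is unknown. The value 6.7067 recurs to all digits in single libraries of several genes. These are Rab18 and Rab6b in GFP-crush, Rab6b in α9k1-crush, Rab1b in α9k1-naive and Rab28 in both α9k1 groups. How this value arose was not tested, and it may not be a level measured for these genes. The order of genes has further limits, since some share exon bases or near-identical copies with others, and the part of the unaligned and mismatched reads in the levels was not tested. Kindlin-1 (Fermt1) lay between 0.42 and 0.80 in the GFP libraries, between 5.18 and 6.00 in α9k1-naive and between 6.42 and 7.73 in α9k1-crush libraries. For α9 (Itga9), levels of 2.38 to 5.16 in α9k1-naive libraries overlapped those of 1.77 to 2.40 in GFP-naive libraries, while in α9k1-crush they were 5.53 to 7.51 and in GFP-crush 0.90 to 1.92. All 11 sensory neuron markers were measured, with a log2 summed level of 12.9 to 13.3 in GFP-naive, 12.7 to 13.1 in α9k1-naive, 13.3 to 13.9 in GFP-crush and 13.6 to 14.1 in α9k1-crush libraries. All 9 markers of satellite glia and Schwann cells were measured too, at a summed level of 13.4 to 13.7 in GFP-naive, 12.3 to 12.7 in α9k1-naive, 13.4 to 14 in GFP-crush and 12.6 to 13.5 in α9k1-crush libraries. In GFP-naive libraries the glial level was thus above that of the sensory neuron markers, and the word neurons below stands for the sorted pools.

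Most of the Rab genes were expressed above the level of the median gene. Of the 56 genes, 38 had a mean over the 19 libraries above the median of all genes (4.37), and 22 were above the upper quartile (5.73). Rab11a, which directs recycling endosomes, had the highest mean over the libraries, 8.73, and a place of 297 among the 12629 genes. It was followed by the synaptic vesicle protein Rab3a (8.44), the Golgi protein Rab2a (8.18), Rab11b (8.16), the Golgi protein Rab6a (8.11), Rab7 (8.10) and Rab1a (8.07), which acts between ER and Golgi. Over the libraries, the range of Rab11a (8.34 to 9.34) overlapped that of Rab3a (7.85 to 9.10) but not those of Rab2a (7.96 to 8.28) and Rab1a (7.81 to 8.27). The order of the first pair turned in α9k1-crush libraries, where Rab3a (8.83 to 9.07) was above Rab11a (8.54 to 8.79). Lowest were Rab32 (2.63), known for traffic to lysosome-related organelles, and Rab3c (2.82), another synaptic vesicle Rab.

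**Figure D1:**
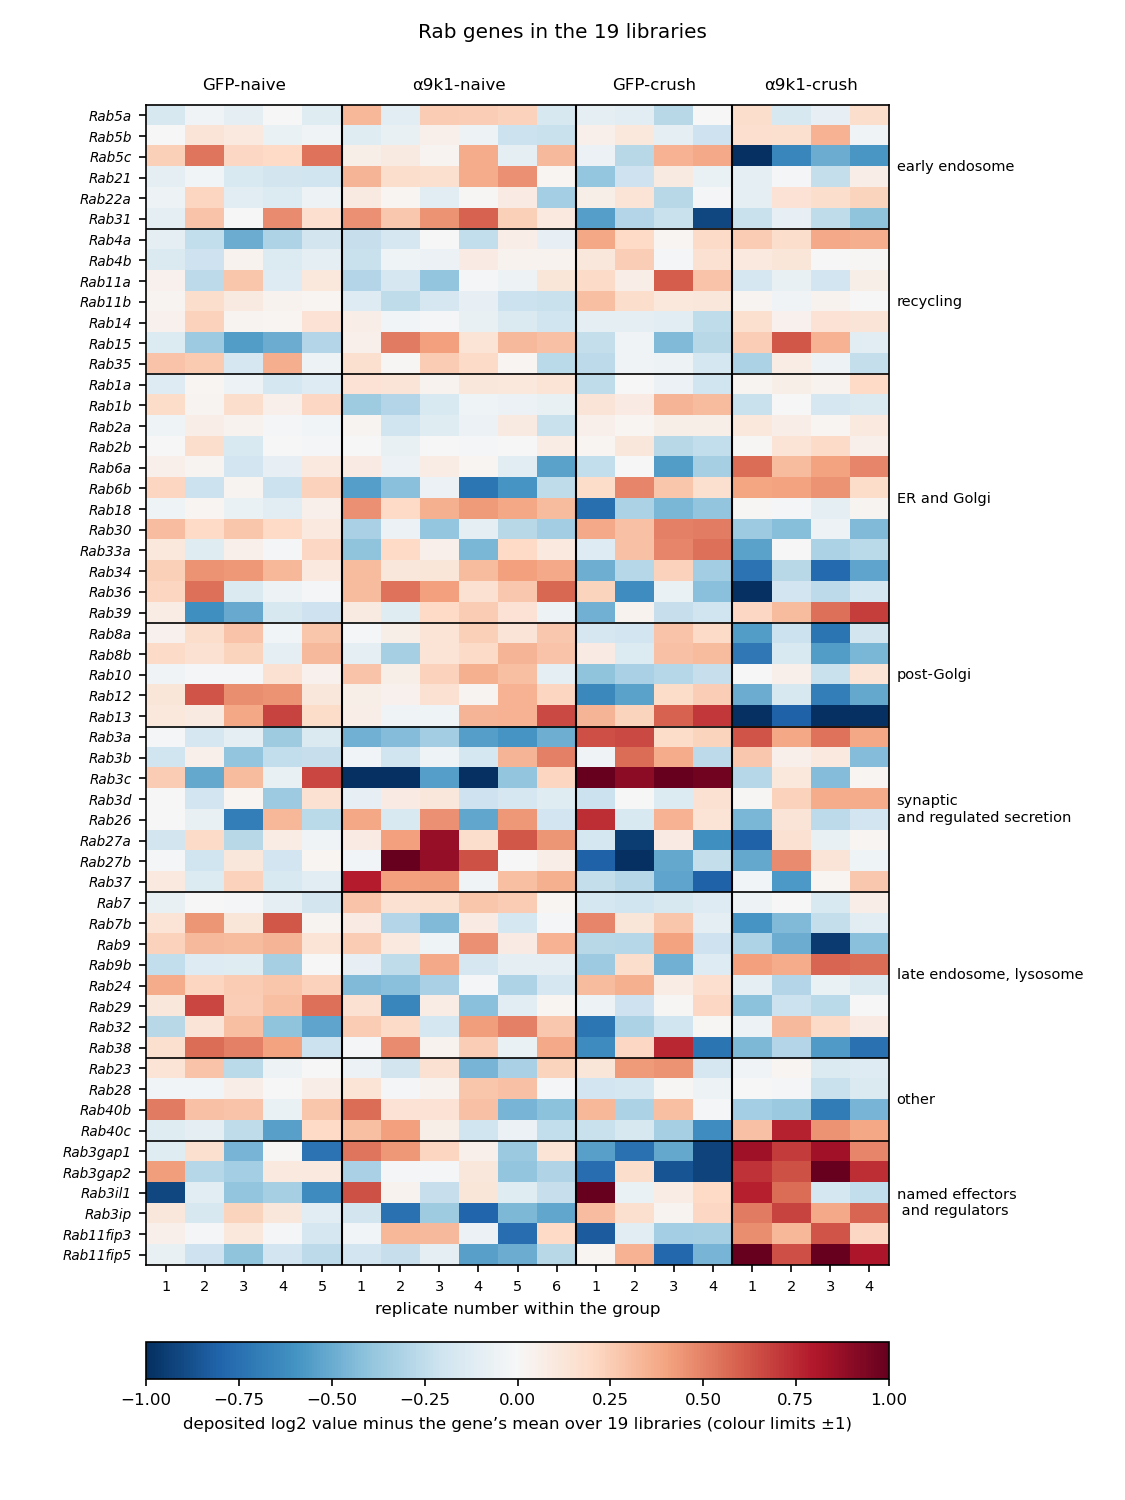
Log2 expression of the 56 Rab genes (rows, grouped by role) in the 19 libraries (columns, grouped by condition), drawn as the difference from the mean of each gene with colours limited to 1 in either direction. Rab3a is higher in both crush groups than in either naive group, and Rab24 and Rab30 are lower in both α9k1 groups than in both GFP groups.

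The first comparison asks how the neurons differed after transduction with α9 and kindlin-1 in the absence of injury. Between α9k1-naive and GFP-naive neurons, 5 of the 56 Rab genes rose and 10 fell at an adjusted p below 0.1 in a limma fit with 3 covariates made from library metrics. Over all genes tested, 11.4% rose and 17.6% fell, and the Rab genes came to 8.93% and 17.9%, which is close to this background. With libraries centred on their medians, 7 rose and 6 fell (13.1% and 13.7% of all genes). The median log2 fold change (log2FC, the difference on the log2 scale at equal covariates) was 0.06 for the Rab genes and -0.08 for all genes, and without covariates it was -0.03 and -0.09, so the sign of the Rab median turned. Both directions occurred among the recycling Rabs (1 rose and 2 fell of 7), the ER and Golgi Rabs (2 and 3 of 12) and the late endosomal Rabs (1 and 2 of 8). In these sorted pools, which also held glial marker RNA (summed level 13.4 to 13.7 in GFP-naive and 12.3 to 12.7 in α9k1-naive libraries), fewer cells of a type and less RNA per cell cannot be told apart.

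Among the early endosomal Rabs, Rab21 rose. Rab21 binds integrin α subunits and takes part in their uptake. Its levels in GFP-naive libraries were 6.44, 6.52, 6.39, 6.36 and 6.35, and in α9k1-naive libraries the lowest was 6.56, the median 6.80 and the highest 7.0. The groups did not overlap, and the log2FC was 0.40 (SE 0.14, adjusted p = 0.0495). This call was lost when GFP-naive replicate 4 (0.37, adjusted p = 0.14) or GFP-crush replicate 3 (0.34, adjusted p = 0.103) was left out, while without α9k1-naive replicate 6 the log2FC was 0.71 (adjusted p = 0.00873). The core early endosomal Rabs did not pass the test. Rab5a, with a mean of 6.60 ± 0.06 (SD, n = 5) in GFP-naive and 6.81 ± 0.21 (n = 6) in α9k1-naive libraries, had a log2FC of 0.07 with a 95% interval of -0.20 to 0.34. For Rab5b the interval was -0.49 to -0.03 around a log2FC of -0.26 (adjusted p = 0.107), and for Rab5c it was -0.49 to 0.33. Rab22a, which sorts cargo from early to recycling endosomes, had a log2FC of -0.23 (adjusted p = 0.181), and Rab31, which acts between the trans-Golgi network and endosomes, one of 0.05 (adjusted p = 0.87).

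Of the recycling Rabs, only Rab15 rose. Rab15 is a neuronal Rab of early and recycling endosomes. It was at 5.78, 5.55, 5.36, 5.42 and 5.62 in GFP-naive libraries and at 5.96 (lowest), 6.22 (median) and 6.44 (highest) in α9k1-naive libraries. All α9k1-naive libraries exceeded the highest GFP-naive one, with a log2FC of 0.58 (SE 0.14, adjusted p = 0.0093), the largest among the Rab genes that rose. Without α9k1-naive replicate 6 the log2FC was 0.47 (adjusted p = 0.128). Rab11b fell. This close relative of Rab11a is abundant in brain. Its GFP-naive levels were 8.19, 8.33, 8.25, 8.19 and 8.18, and its α9k1-naive levels had a lowest value of 7.90, a median of 7.97 and a highest value of 8.07. These ranges were separate, and the log2FC of -0.30 (SE 0.08, adjusted p = 0.0197) passed with each library left out. Rab14, which carries cargo between the Golgi and endosomes, also fell (log2FC -0.23, adjusted p = 0.0659), though its groups overlapped and the call was lost without GFP-naive replicate 2 (-0.20), α9k1-naive replicate 5 (-0.22) or α9k1-naive replicate 6 (-0.17). Beyond these, Rab11a had a log2FC of 0.17 (adjusted p = 0.284), Rab4a one of 0.10 (adjusted p = 0.601), Rab4b one of 0.12 (adjusted p = 0.402) and Rab35 one of -0.31 (adjusted p = 0.121), none of which passed. The table holds no value that tells apart reads of near-identical copies, and Rab11b-ps2, a pseudogene of Rab11b with a mean of 7.86 that is not among the 56 genes, had a log2FC of -0.34 (adjusted p = 0.0213). The levels of Rab11b are therefore uncertain.

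**Figure D2:**
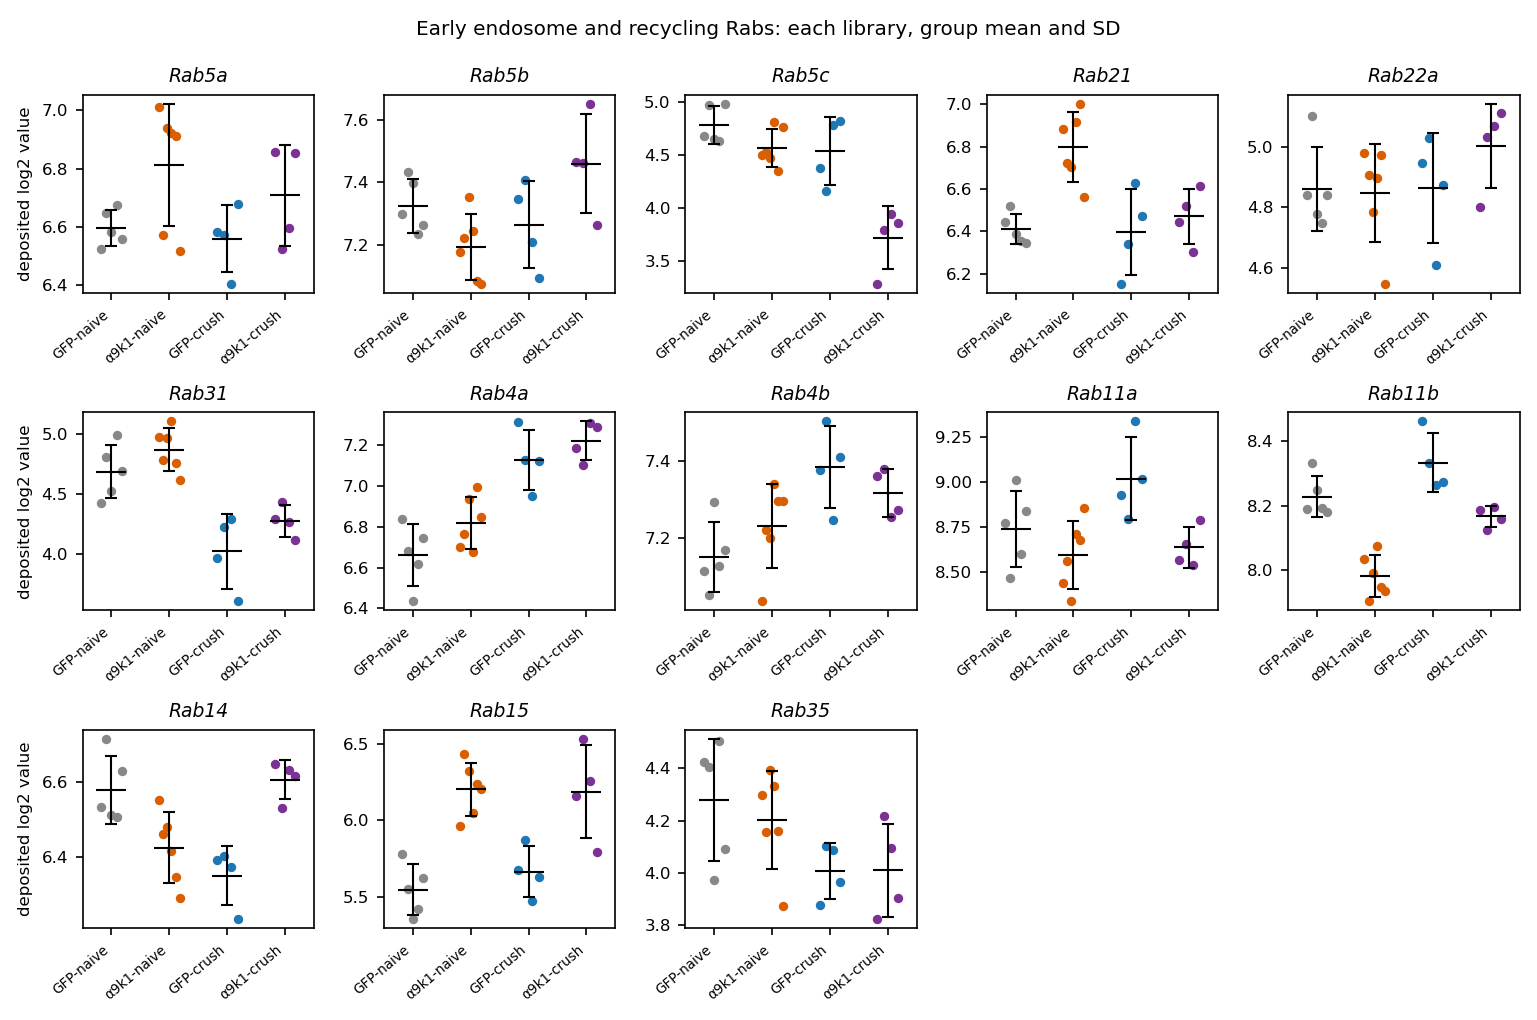
Log2 expression of the 6 early endosomal and 7 recycling Rabs, with 1 point per library (spread sideways so that all can be seen) and the mean ± SD of each of the 4 groups. Rab21 and Rab15 are higher and Rab11b is lower in the α9k1-naive group than in the GFP-naive group without overlap, and Rab4a is higher in GFP-crush than in GFP-naive libraries.

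The ER and Golgi Rabs moved in both directions. Rab18, which acts on the ER and on lipid droplets, was at 7.42, 7.48, 7.39, 7.34 and 7.51 in GFP-naive libraries. In α9k1-naive libraries its lowest level was 7.66, the median 7.83 and the highest 7.92. All α9k1-naive libraries were thus higher, and Rab18 rose with a log2FC of 0.39 (SE 0.11, adjusted p = 0.0196). Rab1a, required for traffic from the ER to the Golgi, rose by a smaller amount, from GFP-naive levels of 7.94, 8.09, 8.02, 7.89 and 7.94 to α9k1-naive levels of 8.11 (lowest), 8.19 (median) and 8.22 (highest). These groups did not overlap (log2FC 0.23, adjusted p = 0.0678), and the call was lost without GFP-naive replicate 1 (0.23) or 4 (0.19), α9k1-naive replicate 4 (0.20) or 6 (0.26) or GFP-crush replicate 3 (0.22). Rab30, a Golgi Rab, was at 4.58, 4.48, 4.55, 4.47 and 4.37 in GFP-naive libraries and at 3.89 (lowest), 3.98 (median) and 4.22 (highest) in α9k1-naive libraries. It fell without overlap of the groups, with a log2FC of -0.54 (SE 0.11, adjusted p = 0.0038). Rab6a and its neuronal paralogue Rab6b, which drive transport at the Golgi, had log2FC of -0.35 (adjusted p = 0.0411) and -0.38 (adjusted p = 0.0401). Of the exon bases of Rab6a, 19% lie opposite exons of Mrpl48, a mitochondrial ribosomal protein gene (log2FC -0.06, adjusted p = 0.747), whose reads cannot be told apart without strand. The deposited levels of Rab6a overlapped, with means of 8.09 ± 0.12 (SD, n = 5) in GFP-naive and 8.02 ± 0.23 (n = 6) in α9k1-naive libraries, and without covariates its log2FC was -0.07 (adjusted p = 0.673). Without α9k1-naive replicate 6, Rab6a no longer passed (-0.22, adjusted p = 0.379), and Rab6b no longer did without GFP-naive replicate 4 (-0.35, adjusted p = 0.111).

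Of the 8 synaptic and secretory Rabs, Rab3a fell. It had levels of 8.43, 8.28, 8.35, 8.09 and 8.30 in GFP-naive libraries and of 7.85 (lowest), 7.96 (median) and 8.10 (highest) in α9k1-naive libraries. The 2 ranges touched, as the highest α9k1-naive library was just above the lowest GFP-naive one, and the log2FC of -0.41 (SE 0.13, adjusted p = 0.0316) passed with each library left out. The other members did not pass: the log2FC was 0.43 for Rab3b (adjusted p = 0.18), -0.20 for Rab3c (0.611), -0.01 for Rab3d (0.982), 0.06 for Rab26 (0.914), 0.61 for Rab27a (0.137), 0.45 for Rab27b (0.349) and 0.31 for Rab37 (0.267). Rab3c was at 1.41 to 3.03 in α9k1-naive and at 2.31 to 3.49 in GFP-naive libraries and was lower by 0.89 without covariates. The deposited values include a pseudocount, whose effect at this low level was not measured. Beside this, 4 of 11 sensory neuron markers fell and 1 rose in the same comparison, with a median log2FC of -0.27, and their part in the result was not tested.

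Among late endosomal Rabs, Rab24, which is linked to autophagy, fell the most of all Rab genes in the fit with covariates. Its levels were 6.47, 6.32, 6.36, 6.38 and 6.33 in GFP-naive libraries, against a lowest of 5.66, a median of 5.79 and a highest of 6.09 in α9k1-naive libraries. The ranges were separate (log2FC -0.57, SE 0.11, adjusted p = 0.00231), and the call passed with each library left out. In the GENCODE annotation (GRCm38), however, 62.4% of the exon bases of Rab24 (chromosome 13, 55319223 to 55321980, minus strand) lie opposite exons of Prelid1, a mitochondrial lipid transfer gene. The kit does not mark strand, and 49.9% to 50.0% of reads lay on the annotated strand. Prelid1 fell as well (log2FC -0.41, adjusted p = 0.00609), so reads of the 2 genes cannot be told apart. Rab7b, known from endosome to Golgi transport, fell (log2FC -0.45, adjusted p = 0.0734) and Rab7, the Rab of late endosomes, rose (log2FC 0.23, adjusted p = 0.0967). The call of Rab7 remained in 1 of 19 fits that each left out 1 library, although its groups did not overlap, at 7.92 to 8.11 and 8.12 to 8.39. That fit was the one without α9k1-naive replicate 6, with a log2FC of 0.38 (adjusted p = 0.0413). Rab7b lost its call without GFP-naive replicates 1 (-0.39), 2 (-0.43) or 4 (-0.38), α9k1-naive replicate 5 (-0.43) or α9k1-crush replicate 3 (-0.41).

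Of the 6 named proteins, Rab3ip and Rab3gap2 fell in α9k1-naive neurons. Rab3ip (Rabin8) is the GEF that activates Rab8. It was at 4.12, 3.85, 4.23, 4.12 and 3.90 in GFP-naive libraries and at 3.21 (lowest), 3.52 (median) and 3.82 (highest) in α9k1-naive libraries. The groups were separate, with a log2FC of -0.55 (SE 0.16, adjusted p = 0.0222), which without α9k1-naive replicate 6 was -0.52 (adjusted p = 0.135). Rab3gap2, the noncatalytic subunit of the Rab3GAP complex, which inactivates Rab3 and activates Rab18, had a log2FC of -0.52 (adjusted p = 0.0908), but its deposited levels overlapped, and its call remained in 7 of 19 fits with 1 library left out, with a log2FC of -0.86 without α9k1-naive replicate 6. No post-Golgi Rab passed the test (0 of 5), the log2FC of Rab8a, Rab8b, Rab10, Rab12 and Rab13 being 0.26, 0.19, 0.10, 0.01 and 0.19. Without covariates, 12 Rab genes rose (16.5% of all genes) and 11 fell (29.5%). Of these 23 calls, 13 were shared with the fit with covariates. Under 9 other settings (other scalings, filters, samples or covariates), the calls of Rab24, Rab30 and Rab3a remained in all 9, those of Rab11b, Rab15, Rab18, Rab21, Rab3ip and Rab6b in 8, those of Rab1a and Rab7 in 7, that of Rab7b in 5, those of Rab14 and Rab6a in 4 and that of Rab3gap2 in 2. The log2FC ran from 0.25 to 0.75 for Rab21, from 0.15 to 0.43 for Rab7, from -0.26 to -0.13 for Rab14, from -0.39 to 0.02 for Rab6a and from -0.86 to -0.13 for Rab3gap2. In the deposited levels themselves, 5 genes were higher (8.43% of all genes) and 5 lower (13.2%) without overlap of the groups. The lower ones were Rab11b, Rab1b, Rab30, Rab24 and Rab3ip, and the highest α9k1-naive level of Rab1b was the recurring value given above. In this comparison, 5 of 9 glial markers fell and 2 rose, 3 of 3 measured endothelial markers and 5 of 5 measured fibroblast markers fell (the latter at a summed level of 6.62 to 8.21 against 9.42 to 9.74) and 5 of 8 measured macrophage markers rose (8.70 to 9.37 against 7.44 to 7.94). The macrophage markers Itgam and Cx3cr1 and the fibroblast marker Pdgfra were not in the table, and the part of these cells in the result was not tested.

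The promoters of 4 genes that carried these and the following results are shown, because their windows differ in the motifs they hold. RefSeq promoter entries (GRCm38.p6) matched 46 of the 56 genes. The 250 bases before each start were searched on both strands for 5 motifs: the CRE (TGACGTCA), AP-1 (TGANTCA), the E-box (CACGTG), the GC box (GGGCGG) and the CCAAT box (CCAAT). None of the 5 motifs contains another. Capitals mark matches on either strand. The Rab24 window (chr13:55321981-55322230, minus strand) held none of the 5, the Rab21 window (chr10:115315592-115315841, minus strand) an E-box and a GC box, that of the first of 2 Rab3a starts (chr8:70754453-70754702, plus strand) 2 GC boxes and 2 CCAAT boxes, and the Rab3c window (chr13:110280207-110280456, minus strand) a GC box and a CCAAT box. The last bases of the Rab3a window shown lie inside the first exon of the GENCODE model. The window of the second Rab3a start (chr8:70754852-70755101, plus strand) is not shown and held none of the 5 motifs.
Rab24: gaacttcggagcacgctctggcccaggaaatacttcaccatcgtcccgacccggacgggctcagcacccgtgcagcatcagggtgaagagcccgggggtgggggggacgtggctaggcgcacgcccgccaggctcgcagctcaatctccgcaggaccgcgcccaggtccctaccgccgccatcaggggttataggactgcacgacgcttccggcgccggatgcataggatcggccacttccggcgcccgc
Rab21: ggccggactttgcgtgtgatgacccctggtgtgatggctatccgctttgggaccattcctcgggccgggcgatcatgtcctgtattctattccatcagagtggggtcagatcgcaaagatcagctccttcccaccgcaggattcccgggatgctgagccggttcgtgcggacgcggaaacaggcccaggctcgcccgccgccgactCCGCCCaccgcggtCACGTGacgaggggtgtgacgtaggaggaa
Rab3a: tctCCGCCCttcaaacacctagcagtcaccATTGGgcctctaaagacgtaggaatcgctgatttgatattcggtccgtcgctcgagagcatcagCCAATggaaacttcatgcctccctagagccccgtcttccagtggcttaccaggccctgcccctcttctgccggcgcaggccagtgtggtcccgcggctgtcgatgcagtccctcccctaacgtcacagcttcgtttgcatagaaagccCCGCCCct
Rab3c: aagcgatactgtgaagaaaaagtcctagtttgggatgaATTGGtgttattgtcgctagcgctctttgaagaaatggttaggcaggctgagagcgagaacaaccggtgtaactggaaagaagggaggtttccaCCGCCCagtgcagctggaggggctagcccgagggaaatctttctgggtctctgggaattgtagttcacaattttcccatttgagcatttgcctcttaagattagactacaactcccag

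A GC box was found in 38 of the 46 Rab genes (82.6%), in 64.9% of the 8366 genes tested that had an entry and in 35.4% of all genes with an entry, or 32.7% of all promoters. A CCAAT box was found in 25 Rab genes (54.3%, against 40.4% of genes tested). The E-box was present in 6 (13% against 10.3%): Rab21, Rab23, Rab27a, Rab3gap2, Rab3il1 and Rab5a. The CRE was present in Rab11fip3 and Rab5a (4.35% against 3.23%) and AP-1, a site known from injured neurons, in Rab15 and Rab34 (4.35% against 5.57%). Genes with more than 1 start have more windows and so more chances of a match.

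The second comparison asks what dorsal root crush changed in neurons with GFP alone. Between GFP-crush and GFP-naive neurons, 4 Rab genes rose and 8 fell (7.14% and 14.3% of the Rab genes), against 7.39% and 15.7% of all genes. The 3 genes that rose the most were Rab3c, Rab3a and Rab4a, and those that fell the most were Rab12, Rab34 and Rab31. The split depended on the scaling: when libraries were centred on their medians, 11 Rab genes rose and 5 fell (14.5% and 9.34% of all genes), and the median log2FC of all genes moved from -0.08 to 0.06. The direction of every Rab gene called was the same under that scaling.

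The synaptic vesicle Rabs Rab3a and Rab3c rose after crush. Rab3a, which had 8.43, 8.28, 8.35, 8.09 and 8.30 in GFP-naive libraries, was at 9.09, 9.10, 8.63 and 8.67 in GFP-crush libraries. All GFP-crush libraries were higher, and Rab3a had a log2FC of 0.64 (SE 0.13, adjusted p = 0.00555) that passed with each library left out. Rab3c levels were 3.07, 2.31, 3.13, 2.74 and 3.49 in GFP-naive and 4.22, 3.71, 4.05 and 3.78 in GFP-crush libraries. Its groups did not overlap either (log2FC 0.73, SE 0.25, adjusted p = 0.064), but this call was lost without GFP-naive replicate 2 (0.54) or 3 (0.72), GFP-crush replicate 1 (0.58) or 2 (0.65) or α9k1-crush replicate 3 (0.71). Rab37, a Rab of secretory granules, fell. It was at 5.29, 5.06, 5.43, 5.04 and 5.09 in GFP-naive and at 4.96, 4.91, 4.66 and 4.39 in GFP-crush libraries. The ranges were separate (log2FC -0.56, adjusted p = 0.0645), and 13 of 19 fits with 1 library left out kept the call. The other synaptic and secretory Rabs did not pass, with log2FC of 0.23 (Rab3b), 0.09 (Rab3d), 0.44 (Rab26), -0.51 (Rab27a) and -0.40 (Rab27b) and adjusted p between 0.234 and 0.698. In the same comparison 6 of 11 sensory neuron markers rose and none fell, with a median log2FC of 0.55, and their part in the rise of Rab3a and Rab3c was not tested.

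**Figure D3:**
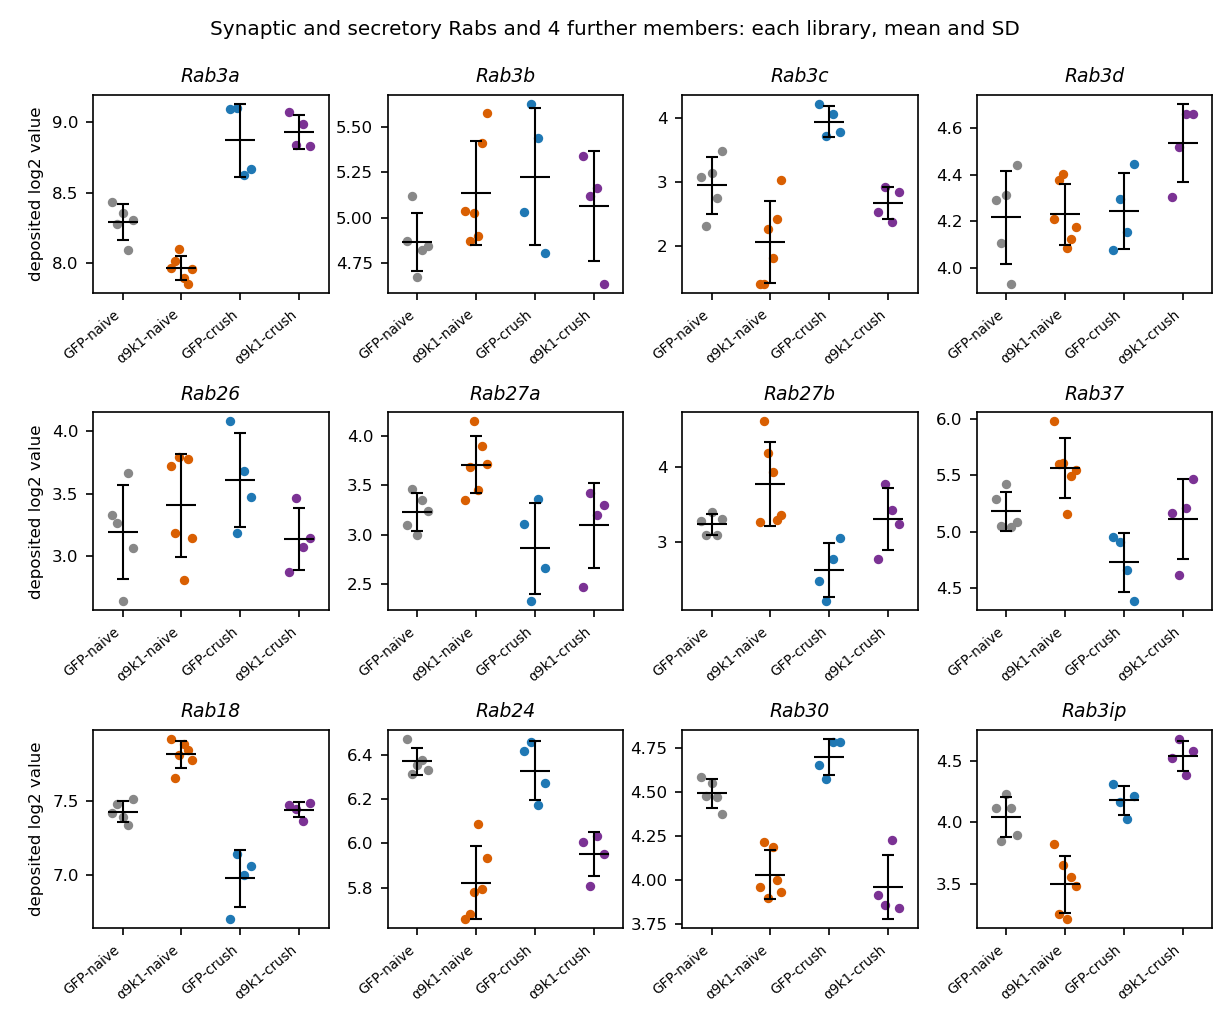
Log2 expression of the 8 synaptic and regulated secretory Rabs and of Rab18, Rab24, Rab30 and Rab3ip, with 1 point per library (spread sideways) and the mean ± SD of each group. Rab3a is highest in the 2 crush groups, and Rab18 is highest in α9k1-naive, lowest in GFP-crush and at overlapping levels in GFP-naive and α9k1-crush libraries.

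Of the recycling Rabs, Rab4a rose after crush. Rab4a governs the rapid return of cargo from early endosomes to the surface. From 6.84, 6.68, 6.43, 6.62 and 6.75 in GFP-naive libraries it went to 7.31, 7.13, 6.95 and 7.12 in GFP-crush libraries. No GFP-crush library was as low as a GFP-naive one, and the log2FC of 0.51 (SE 0.12, adjusted p = 0.0152) passed with each library left out. Rab4b had a log2FC of 0.24 (adjusted p = 0.107), Rab11a of 0.16 (0.343), Rab11b of 0.12 (0.367), Rab15 of 0.27 (0.212) and Rab35 of -0.11 (0.645). Rab14 fell (log2FC -0.22, adjusted p = 0.0975) without overlap of the groups, at 6.51 to 6.72 and 6.23 to 6.40, and the call remained in 4 of 19 fits with 1 library left out. It was also lost with median-centring, with only the 2 groups in the fit and with a replicate block, and the log2FC of Rab14 ran from -0.31 to -0.08 under 9 other settings.

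Rab31 was the early endosomal Rab that fell. It had 4.42, 4.81, 4.52, 4.99 and 4.69 in GFP-naive and 3.97, 4.22, 4.29 and 3.61 in GFP-crush libraries. All GFP-crush libraries were lower (log2FC -0.63, SE 0.18, adjusted p = 0.033), and the log2FC was -0.60 (adjusted p = 0.108) without GFP-naive replicate 2 and -0.44 (adjusted p = 0.101) without GFP-crush replicate 4. Rab5a (log2FC 0.00), Rab5b (0.01), Rab5c (-0.26), Rab21 (-0.04) and Rab22a (0.10) did not pass, and the 95% intervals of Rab5a (-0.27 to 0.27) and Rab5b (-0.22 to 0.25) bound a change in either direction.

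Rab12, which controls the degradation of recycling receptors, had the lowest log2FC of all Rab genes. Its GFP-naive levels were 4.94, 5.44, 5.28, 5.26 and 4.93, and its GFP-crush levels 4.17, 4.28, 5.0 and 5.06. Replicates 1 and 2 of GFP-crush were lower than every GFP-naive library while replicates 3 and 4 lay among them, so the groups overlapped. The log2FC was -0.74 (SE 0.21, adjusted p = 0.0278), and without GFP-naive replicate 2 it was -0.62 (adjusted p = 0.127). Rab34, which positions lysosomes from the Golgi and acts in primary cilia, was at 6.16, 6.38, 6.36, 6.26 and 6.03 in GFP-naive and at 5.44, 5.64, 6.16 and 5.58 in GFP-crush libraries. Of the latter, replicate 3 lay within the GFP-naive range, and the log2FC of -0.71 (SE 0.16, adjusted p = 0.0096) passed with each library left out. Rab9, which returns receptors from late endosomes to the Golgi, fell too (log2FC -0.57, adjusted p = 0.03), with GFP-crush levels of 4.08, 4.07, 4.76 and 4.15 that included the highest of both groups, and without GFP-naive replicate 2 it no longer passed (-0.54, adjusted p = 0.102). Rab29, which acts at the trans-Golgi network and lysosomes, fell with a log2FC of -0.55 (adjusted p = 0.0723), and 11 of 19 fits with 1 library left out and 3 of 9 other settings kept the call, with a log2FC between -0.55 and -0.36 in the latter. Of the other genes called after crush, Rab30 kept its call in 4 of 9 other settings (0.17 to 0.44), Rab9 (-0.77 to -0.36) and Rab37 in 6, and Rab12, Rab18, Rab31 and Rab3a in 8, each of these 4 losing it with only the 2 groups in the fit. Rab34 and Rab4a passed in all 9 and Rab3c in the 8 that gave it a value (0.72 to 1.14).

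Rab18 and Rab30, which had moved in α9k1-naive neurons, passed in the opposite direction after crush. Rab18 was at 6.71 (the recurring value given above), 7.14, 7.0 and 7.06 in GFP-crush libraries, all lower than the lowest GFP-naive library (7.34). Its log2FC was -0.45 (SE 0.11, adjusted p = 0.0164), and the call lasted with each library left out. Rab30 was at 4.65, 4.57, 4.78 and 4.79 in GFP-crush libraries, which overlapped the GFP-naive range (log2FC 0.31, adjusted p = 0.0865), and its call remained in 7 of 19 fits with 1 library left out. Both comparisons share the GFP-naive libraries. No named protein passed after crush (0 of 6), and Rab3il1, a GEF related to Rab3ip, had a log2FC of 0.76 (adjusted p = 0.122) with groups that did not overlap (1.98 to 2.77 and 2.83 to 3.95). Without covariates 5 Rab genes rose and 12 fell (11% and 20.1% of all genes), and the deposited levels of 4 genes were higher and those of 6 lower without overlap (7.59% and 12.2%). Beside these results, 4 of 9 glial markers fell and 1 rose, 4 of 5 measured fibroblast markers fell (summed level 8.11 to 8.43 against 9.42 to 9.74) and 5 of 8 measured macrophage markers rose (9.16 to 9.72 against 7.44 to 7.94), and their part was not tested.

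**Figure D4:**
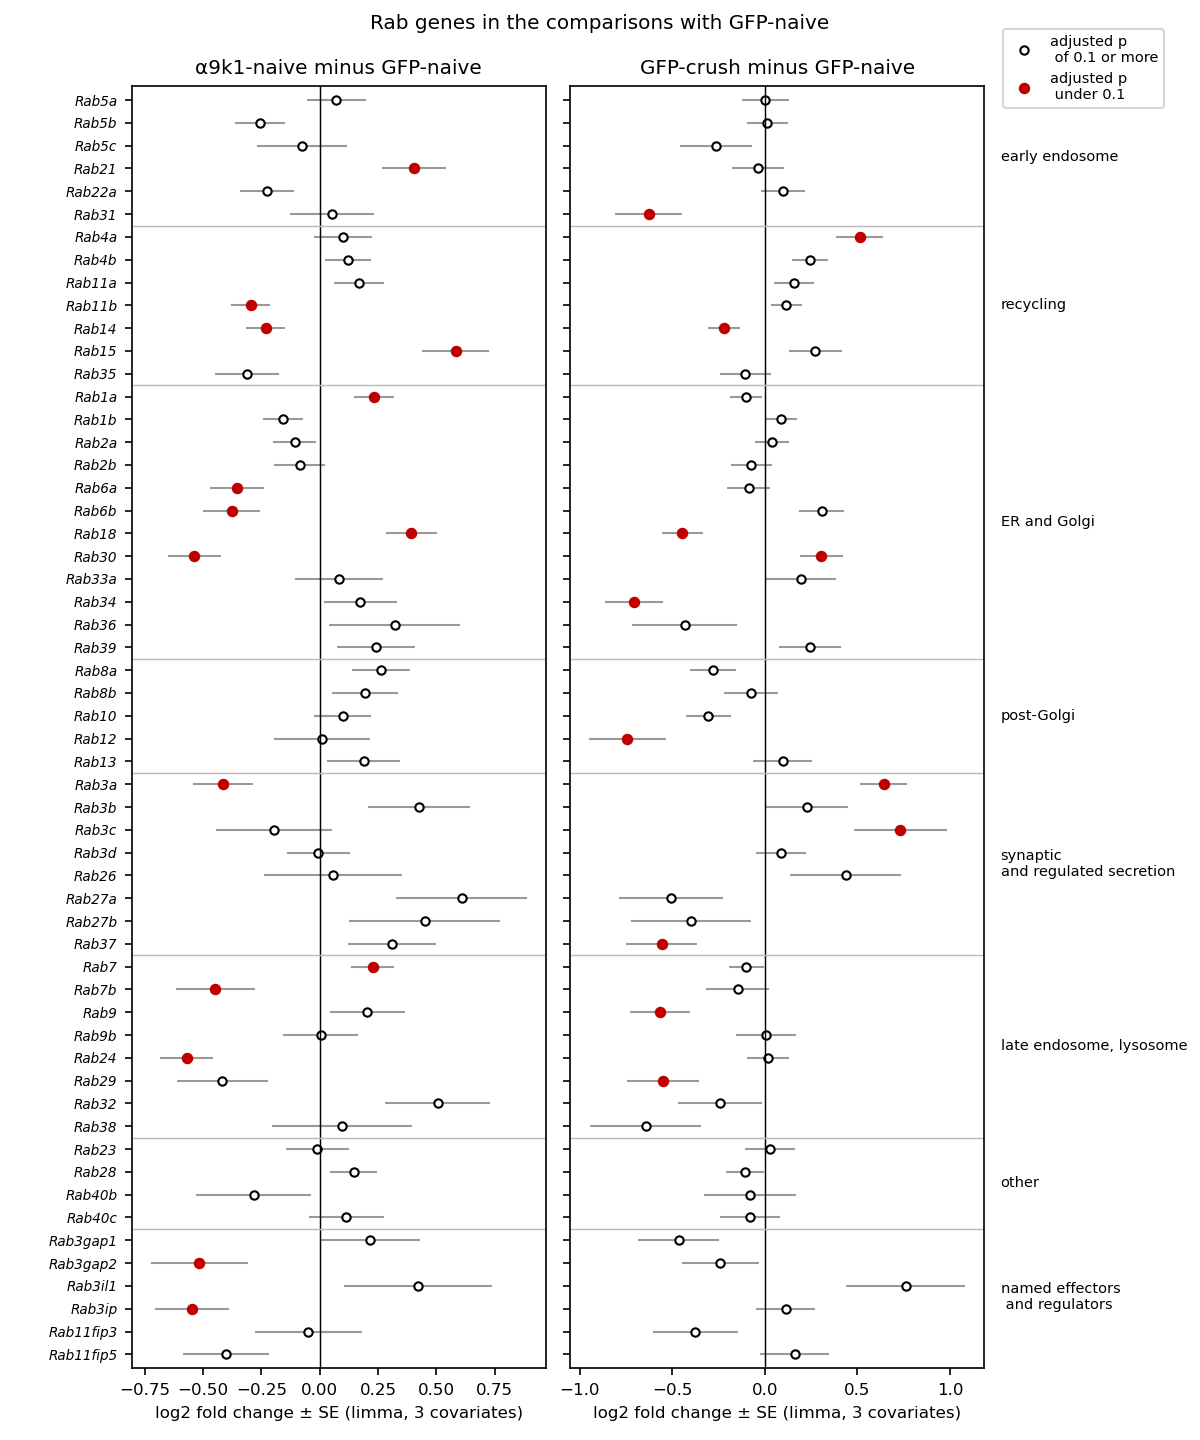
Log2 fold change ± SE of the 56 Rab genes, by role, for α9k1-naive minus GFP-naive (left) and GFP-crush minus GFP-naive (right), from the fit with 3 covariates. Filled red points mark an adjusted p under 0.1, 15 on the left and 12 on the right, and both panels share the GFP-naive libraries.

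The third comparison asks what differed after crush in neurons with α9 and kindlin-1. Kindlin-1 was at 6.42 to 7.73 in α9k1-crush and 5.18 to 6.00 in α9k1-naive libraries, and α9 at 5.53 to 7.51 and 2.38 to 5.16. Crush and the level of the vectors therefore cannot be told apart in this comparison. Between α9k1-crush and α9k1-naive neurons, 1 Rab gene rose (4.47% of all genes) and 1 fell (5.27%), or 2 and 1 after quantile normalization (4.45% and 5.4% of all genes). Rab3ip rose from a lowest of 3.21, a median of 3.52 and a highest of 3.82 in α9k1-naive to 4.52, 4.68, 4.39 and 4.58 in α9k1-crush libraries. All α9k1-crush libraries were above it and above every GFP-naive library, the log2FC was 0.94 (SE 0.28, adjusted p = 0.0672), and the call remained in 13 of 19 fits with 1 library left out and in 7 of 9 other settings (0.44 to 1.06). Rab23, a Rab of the ciliary Hedgehog pathway, fell at equal covariates (log2FC -0.77, SE 0.24, adjusted p = 0.0788). Its deposited levels were nearly the same, at 3.96, 4.01, 3.84 and 3.86 in α9k1-crush and at 3.53 (lowest), 3.87 (median) and 4.21 (highest) in α9k1-naive libraries. Without covariates its log2FC was 0.04 (adjusted p = 0.856), and the call remained in 9 of 19 fits with 1 library left out and in 4 of 9 other settings. Rab3a, at 9.07, 8.83, 8.99 and 8.83 in α9k1-crush libraries, was above every α9k1-naive library by a log2FC of 0.65 that did not pass (SE 0.23, adjusted p = 0.12), and of 0.97 without covariates (adjusted p = 9.8e-07). Rab4a was at 7.18, 7.10, 7.31 and 7.29 against 6.68 to 6.99, with a log2FC of 0.24 (adjusted p = 0.58), or 0.40 without covariates (adjusted p = 0.00241). Rab31 was at 4.11 to 4.43 against 4.61 to 5.10 (log2FC -0.53, adjusted p = 0.373), and Rab18 at 7.37 to 7.48 against 7.66 to 7.92 (log2FC -0.52, adjusted p = 0.143). In the deposited levels, 8 Rab genes were higher and 10 lower without overlap (17.4% and 16.1% of all genes), and without covariates 18 rose and 17 fell (28.5% and 27.1%). The variance of the difference between these groups was 2.12 times the variance within groups with covariates and 0.42 times without. Of the 35 Rab genes called without covariates, 4 had the opposite sign with them. Group and library quality cannot be told apart in this comparison. Beside these values, 4 of 11 sensory neuron markers rose and none fell (median log2FC 0.50), 4 of 9 glial markers rose and 3 fell, 4 of 5 measured fibroblast markers rose (median log2FC 2.29, summed level 7.91 to 8.35 against 6.62 to 8.21), and 1 of 8 macrophage and 1 of 3 endothelial markers rose. Their part in the levels of Rab3ip and Rab3a was not tested.

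The fourth comparison asks how α9 and kindlin-1 changed the neurons after crush. At equal covariates 0 of the 56 Rab genes passed in either direction between α9k1-crush and GFP-crush, where 0.728% of all genes rose and 0.182% fell. At an unadjusted p under 0.05 in the same limma fit, 0 were higher and 3 lower (Rab30, Rab6b and Rab23), against 5.24% and 3.87% of all genes. Without covariates, limma called 18 higher and 15 lower (29.6% and 28.3% of all genes), and the deposited levels of 13 were higher and of 12 lower without overlap (20% and 20.8%). The covariates differed between these groups, and the variance of this difference was 3.11 times the variance within groups with them and 0.50 times without them. Of the 33 Rab genes called without covariates, 9 had the opposite sign with them (Rab11a, Rab14, Rab15, Rab34, Rab37, Rab3d, Rab40c, Rab8a and Rab9), and no direction can be given for these 9. Group and library quality cannot be told apart for these 9, nor for the other Rab genes in this comparison.

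**Figure D5:**
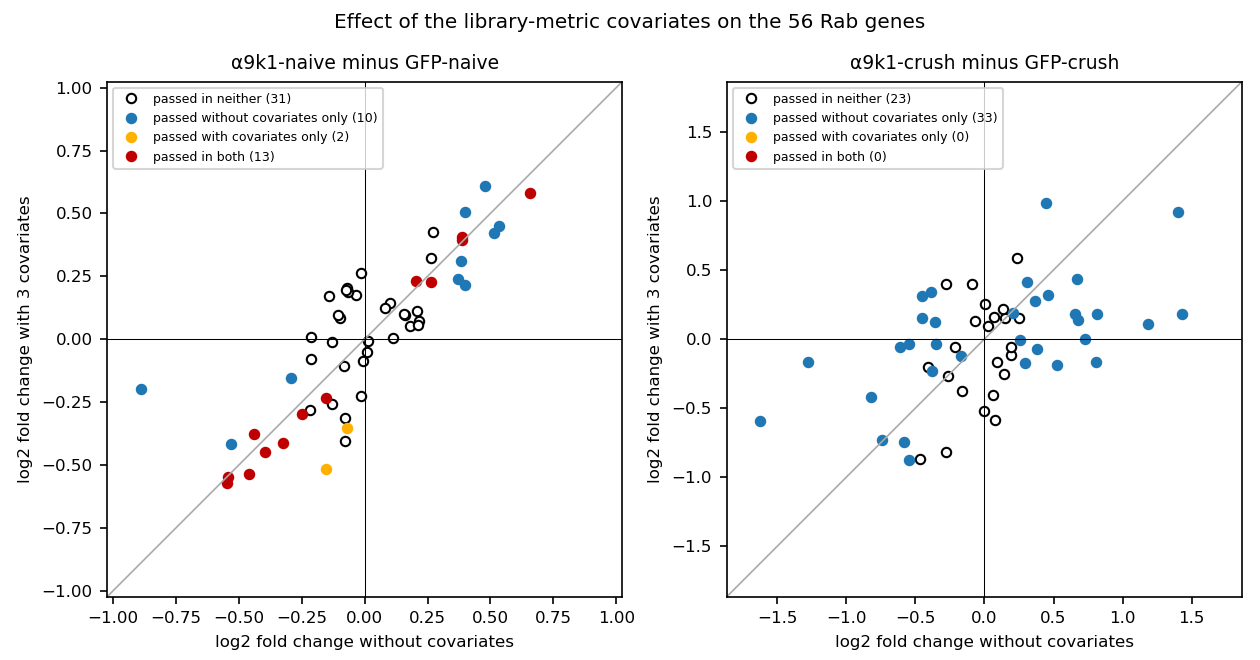
Log2 fold change of the 56 Rab genes with 3 covariates (y axis) against that without (x axis), for α9k1-naive minus GFP-naive (left) and α9k1-crush minus GFP-crush (right), with the line of equality. On the left 13 genes passed in both fits, whereas on the right 33 passed without covariates and 0 with them.

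In the deposited levels after crush, the named proteins stood at higher levels with α9 and kindlin-1 in 5 of 6 cases without overlap of the groups (20% of all genes), and 0 of 6 passed with covariates. Rab3gap1, the catalytic subunit of Rab3GAP, was at 3.92, 3.72, 3.95 and 3.53 in GFP-crush and at 5.31, 5.16, 5.30 and 4.95 in α9k1-crush libraries. Every α9k1-crush library was higher, with a log2FC of 1.40 without covariates (adjusted p = 2.34e-05) and of 0.92 with them (SE 0.47, adjusted p = 0.594). Its partner Rab3gap2 was at 3.55, 4.49, 3.45 and 3.39 against 5.04, 4.95, 5.56 and 5.06, a difference of 1.43 without covariates and 0.18 with them. Of the exon bases of Rab3gap2, 18.8% lie opposite exons of Iars2, a mitochondrial tRNA synthetase gene with a mean level of 4.20 that was itself higher by 0.91 without covariates (0.12 with them), and without strand these reads cannot be told apart. Rab11fip5, a Rab11 effector of recycling endosomes, was at 5.0, 5.34, 4.20 and 4.52 against 6.10, 5.63, 6.27 and 5.79 (1.18 without covariates and 0.11 with them). For all these genes the groups were separate, and the size of the difference was over 1.5 times larger without covariates. Rab11fip3 (0.81 and 0.18) and Rab3ip (0.37 and 0.28) were the other named proteins with separate groups, and Rab3il1 was not higher without covariates (-0.09).

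Without covariates, the lowest differences after crush were those of Rab13 and Rab3c, while with them that of Rab40b was lowest (-0.87, adjusted p = 0.671). Rab13, which acts at cell junctions and in neurite growth, was at 4.63, 4.51, 4.88 and 5.0 in GFP-crush and at 3.09, 3.49, 3.08 and 2.87 in α9k1-crush libraries. These ranges were far apart, the log2FC was -1.62 without covariates (adjusted p = 2.59e-06) and -0.59 with them (adjusted p = 0.643). Rab3c was at 4.22, 3.71, 4.05 and 3.78 against 2.53, 2.92, 2.38 and 2.83 (-1.27 without covariates, -0.16 with them). Rab5c, at 4.38, 4.16, 4.79 and 4.82 against 3.28, 3.79, 3.95 and 3.86, was also lower in every α9k1-crush library (-0.82 and -0.42). Rab30 was at 4.57 to 4.79 against 3.84 to 4.22, and its difference was nearly the same in both fits (-0.74 without covariates, adjusted p = 2.55e-05, and -0.73 with them, adjusted p = 0.354). Rab18 was at 7.47, 7.45, 7.37 and 7.48 in α9k1-crush libraries, within 7.34 to 7.51 of GFP-naive and above 6.71 to 7.14 of GFP-crush (0.46 without covariates and 0.32 with them). Of the other genes with separate groups, Rab8b, Rab7b, Rab40b, Rab24, Rab1b and Rab11b were lower by 0.17 to 0.61 without covariates, and Rab1a, Rab10, Rab39, Rab9b and Rab6a higher by 0.21 to 0.73. Rab9 (-0.45 without covariates and 0.31 with them), Rab11a (-0.38 and 0.34), Rab14 (0.26 and -0.01) and Rab40c (0.81 and -0.17) are among the 9 whose sign turned. Rab39 was at 4.24 to 4.75 in GFP-crush and 4.92 to 5.40 in α9k1-crush libraries (0.66 without covariates, 0.18 with them), Rab9b at 4.11 to 4.77 and 4.96 to 5.18 (0.68 and 0.14), and Rab40b at 2.58 to 3.23 and 2.20 to 2.56 (-0.54 and -0.87). Rab3a and Rab4a, which had risen after crush, differed by 0.06 and 0.09 without covariates, and their 95% intervals with covariates ran from -1.0 to 0.19 and from -0.75 to 0.41. Macrophage markers were at a summed level of 8.91 to 9.82 in α9k1-crush against 9.16 to 9.72 in GFP-crush libraries, and endothelial markers, of which 3 of 6 were measured and Pecam1, Cdh5 and Kdr were not, at 4.41 to 6.04 against 6.18 to 7.06. At equal covariates no marker of any list passed. The median log2FC was then 0.69 (endothelial), 1.56 (fibroblast), 0.65 (macrophage), 0.05 (glial) and -0.27 (sensory neuron). The part of these cells was not tested.

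Whether the effect of α9 and kindlin-1 differed between crushed and naive neurons was tested as an interaction. Kindlin-1 and α9 were themselves higher in α9k1-crush than in α9k1-naive libraries, so crush and vector level cannot be told apart in it. The variance of the interaction was 2.78 times the variance within groups with covariates and 0.87 times without, and group and library quality cannot be told apart either. No Rab gene passed in limma (0 of 56, against 1.35% of all genes higher and 0.847% lower), and at an unadjusted p under 0.05 there were 1 higher (Rab3ip) and 3 lower (Rab23, Rab13 and Rab15), against 8.85% and 5.13% of all genes, while without covariates 12 were higher and 4 lower (23.3% and 16.1%). Rab3ip had an interaction of 0.83 (SE 0.32, adjusted p = 0.263), or 0.91 without covariates (adjusted p = 0.00103), as its α9k1 libraries were below the GFP libraries in naive and above them in crushed ganglia. Rab13 had one of -0.78 (adjusted p = 0.289), or -1.55 without covariates (adjusted p = 0.000157). Rab15 had one of -0.77 with covariates (adjusted p = 0.251) and -0.13 without them. In the interaction 4 of 5 measured fibroblast markers were higher (median 3.57), as were 2 of 9 glial markers with 1 lower, 1 of 11 sensory neuron markers and none of the macrophage and endothelial markers, and their part was not tested.

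Paralogues were compared within libraries for the 9 pairs of Rabs named a and b. Rab1a exceeded Rab1b, its close relative in ER to Golgi transport, by 1.10 ± 0.13 (SD, n = 5) on the log2 scale in GFP-naive libraries and by 1.59 ± 0.15 (n = 6) in α9k1-naive libraries. The difference was 0.97 ± 0.18 (n = 4) in GFP-crush and 1.53 ± 0.12 (n = 4) in α9k1-crush libraries. The Rab1a minus Rab1b difference was thus larger in every α9k1 library (lowest 1.38) than in every GFP library (highest 1.31), and the 2 crush groups overlapped the naive groups of the same virus. In deposited levels Rab1a was higher and Rab1b lower with α9 and kindlin-1, in naive and in crushed ganglia, although at equal covariates only Rab1a in naive ganglia passed (Rab1b log2FC -0.16, adjusted p = 0.214). Rab3a exceeded Rab3b by 3.42 ± 0.21 in GFP-naive, 2.83 ± 0.33 in α9k1-naive, 3.65 ± 0.39 in GFP-crush and 3.87 ± 0.22 in α9k1-crush libraries, with no overlap between α9k1-naive and either GFP-naive or α9k1-crush. Rab6a exceeded Rab6b by 1.56 in GFP-naive against 1.02 in GFP-crush and 1.67 in α9k1-crush libraries, and GFP-crush overlapped neither, with the limits given above for reads of Mrpl48 and for the recurring value of Rab6b. In the other 6 pairs (Rab2, Rab4, Rab5, Rab8, Rab11 and Rab27) the differences overlapped between the groups of every comparison. No share over other pairs of genes was computed, so the separate pairs cannot be set against a background. Rab4b shares 65.0% of its exon bases with another annotated gene on the same strand, so its values are uncertain, and 59.3% of the exon bases of Rab2b lie opposite Gm43766, from which its reads cannot be told apart without strand.

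The regulators and effectors of Rabs were grouped into lists by function. The background for their counts is the share of all genes called, 11.4% higher and 17.6% lower in α9k1-naive and 7.39% and 15.7% in GFP-crush neurons, each against GFP-naive. Of 24 measured GEFs, 1 rose and 3 fell (4.17% and 12.5%) in α9k1-naive against GFP-naive neurons. Rabgef1 (Rabex-5), the GEF of Rab5 and Rab21, rose by a log2FC of 1.74 (SE 0.18, adjusted p = 7.19e-06), and Mon1b, part of the Rab7 GEF, fell (log2FC -0.76, adjusted p = 0.0226, or -0.45 and adjusted p = 0.0511 without covariates). After crush 0 GEFs rose and 6 fell (25%) in neurons with GFP, among them St5 (log2FC -0.86) and Dennd5a (-0.58). Of 14 subunits of TRAPP, the complexes that activate Rab1 and Rab11, 1 rose and 2 fell in α9k1-naive (Trappc11 0.44 and Trappc4 -0.43) and 1 rose and 1 fell in GFP-crush neurons (Trappc4 0.56 and Trappc3 -0.33, the latter -0.23 and not called without covariates, adjusted p = 0.146). Of 33 GAPs of the TBC type and related, 3 rose and 4 fell in α9k1-naive neurons (9.09% and 12.1%, with Tbc1d14 at 0.47 and Tbc1d17 at -0.44), and 6 rose and 5 fell in GFP-crush neurons (18.2% and 15.2%, with Tbc1d4 at 1.13 and Tbc1d14 at -0.61). None of 7 genes for the prenylation or membrane extraction of Rabs passed in either comparison.

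Among effectors, 1 of 22 endosomal ones rose and 3 fell in α9k1-naive neurons (4.55% and 13.6%, both below the 11.4% and 17.6% of all genes), including the Rab11 effectors Wdr44 (log2FC -0.52, adjusted p = 0.00544) and Sh3tc2 (log2FC -0.51, adjusted p = 0.0272). In GFP-crush neurons 0 rose and 4 fell (18.2%, against 15.7% of all genes), including Wdr44 (-0.39) and Ehbp1 (-0.51). Without covariates Wdr44 was not called there (-0.23, adjusted p = 0.208). Sytl2, a Rab27 effector that docks vesicles, had a large change in 3 comparisons: it fell in α9k1-naive neurons (log2FC -1.61, adjusted p = 0.00018), rose in GFP-crush neurons (0.69, adjusted p = 0.0619, but 0.44 and adjusted p = 0.15 without covariates) and rose in α9k1-crush against α9k1-naive neurons (log2FC 2.24, adjusted p = 0.00759). Of the 7 synaptic effectors measured, Rims2, an active zone protein that binds Rab3, rose in α9k1-naive neurons (log2FC 0.58, adjusted p = 0.087). In neither direction did any of 10 Golgi and 9 late endosomal effectors pass in α9k1-naive neurons. In GFP-crush neurons 2 Golgi effectors fell (Erc1 -0.59 and Bicd2 -0.45), and 2 late endosomal ones rose and 2 fell (Vps41 0.37 and Rilpl2 -0.54), of which Vps41 was not called without covariates (0.24, adjusted p = 0.161). In α9k1-crush against α9k1-naive neurons, Eea1, the tether recruited by Rab5, rose (log2FC 1.22, adjusted p = 0.0553), as did the Rab7 effector Osbpl1a (1.0), while the GAP Tbc1d10a (-1.02) and the GEF Dennd2a (-1.12) fell. At equal covariates none of the genes in these lists passed between α9k1-crush and GFP-crush, where 0.728% of all genes were higher and 0.182% lower. In the interaction only Wdr44 passed (1.0, adjusted p = 0.0645), against 1.35% of all genes higher and 0.847% lower. Without covariates, 12 GEFs were higher and 2 lower between α9k1-crush and GFP-crush, as were 18 and 2 of the 33 GAPs, 9 and 3 of the 22 endosomal effectors, 5 and 0 of the 10 Golgi effectors, 4 and 5 of the TRAPP subunits, 3 and 3 of the late endosomal effectors, 3 and 1 of the synaptic effectors and 1 and 2 of the prenylation and extraction genes, against 29.6% and 28.3% of all genes. In the interaction without covariates (23.3% and 16.1% of all genes), 11 GEFs were higher and 1 lower, as were 12 and 2 of the GAPs, 9 and 0 of the endosomal, 5 and 0 of the Golgi, 2 and 0 of the synaptic and 3 and 1 of the late endosomal effectors, 3 and 2 of the TRAPP subunits and 0 and 1 of the prenylation and extraction genes. As for the Rab genes, group and library quality cannot be told apart in these values.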

How the data were processed

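According to the study's methods and processing notes, libraries were made with the SMART-Seq v4 kit, which does not mark strand, aligned to mm10 (GRCm38) with STAR and counted with Salmon. The authors deposited log2 values per gene and library after removing genes with few reads, adding a small pseudocount and normalizing with cqn for gene length and depth. The deposited library metrics from Picard hold counts of reads and bases, fractions, percentages of AT and GC dropout, and ratios of coverage, as the authors computed them. Columns of the authors' own comparisons (fold changes, p-values and mean expression) were not used. The table of values has no gene names, and its rows were read in the order of the deposited gene table. With this order kindlin-1 ranked 3 (naive) and 1 (crush) among 12629 genes by the difference between α9k1 and GFP.

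Groups came from the sample labels. The model in limma 3.58.1 (R 4.3.3) held a mean for each of the 4 groups over all 19 libraries and, as covariates, the first 3 principal components of the 48 scaled metrics (45.9%, 24.1% and 11.5% of their variance, of which 34.5%, 52.2% and 74.5% lay between groups). Batch, a term of the study's model, is given in no table and was omitted. A call needed an adjusted p (Benjamini-Hochberg, over 12629 genes) under 0.1, for 4 comparisons and the interaction. No depth-based error can be given. The scripts were tested on simulated data.

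The members and lists were chosen with earlier results of these data known. Named genes are every member called, every early endosomal, recycling and synaptic member, and the 2 genes with the smallest adjusted p in each list. Other members, among them those with separate groups between α9k1-crush and GFP-crush, the other named proteins and the paralogue pairs, were named after their values were seen. The alternatives were no covariates, only the 2 groups compared, removal of the 25% of genes with the lowest values, quantile normalization, median-centring, array weights, the first component only, a replicate block and leaving out each library. Annotation was GENCODE vM21 and promoters RefSeq (GRCm38.p6). Pandas 2.3.3, numpy 2.4.6 and matplotlib 3.10.9 were used with Python 3.11.15.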

Additional observations from a re-analysis of the deposited data

Results flagged for a closer look

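The level of single libraries was examined in the 4 groups of each of the 56 Rab genes (224 groups). In 9 of them 1 library lay apart from the others by Dixon's criterion at the 95% level, and chance alone gives about 1 in 20. The gap to the nearest library, as a share of the range of the group, is given with each level. Rab22a was at 5.10 in GFP-naive replicate 2 (0.741). In α9k1-naive, Rab11fip3 was at 3.25 in replicate 5 (0.641), Rab6a at 7.57 in replicate 6 (0.684) and Rab9b at 4.97 in replicate 3 (0.736). In GFP-crush, Rab14 was at 6.23 in replicate 4 (0.834), Rab3gap2 at 4.49 in replicate 2 (0.853) and Rab9 at 4.76 in replicate 3 (0.881). In α9k1-crush, Rab36 was at 3.15 in replicate 1 (0.925) and Rab3gap2 at 5.56 in replicate 3 (0.834). The 9 levels came from 9 libraries.

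Rab3ip differed in opposite directions between α9k1 and GFP neurons: all α9k1-naive libraries were below the GFP-naive libraries (difference of means -0.55) and all α9k1-crush libraries above the GFP-crush libraries (0.37). These effects differed by 0.91. The interaction in the fit with 3 covariates was 0.83 (SE 0.32, limma adjusted p = 0.263) and did not pass.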

How the results depend on the processing

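Counts of Rab genes called are given as higher and lower, in this order: the effect of α9 and kindlin-1 in naive and then in crushed ganglia, the effect of crush with GFP and then with α9 and kindlin-1, and the interaction. With 3 covariates they were 5 and 10, 0 and 0, 4 and 8, 1 and 1, 0 and 0. They were 12 and 11, 18 and 15, 5 and 12, 18 and 17, 12 and 4 without covariates, and 12 and 10, 14 and 11, 5 and 9, 17 and 18, 8 and 3 with the first principal component only (16.4% and 29.2%, 25% and 23.6%, 9.21% and 17.5%, 27.8% and 26.2%, 19.5% and 13.1% of all genes). With only the 2 groups compared they were 3 and 7, 0 and 0, 2 and 1, 0 and 0, and the interaction could not be fitted (9.45% and 14%, 0% and 0%, 2.07% and 5.24%, 0.507% and 1.09% of all genes). Median-centring gave 7 and 6 for α9k1-naive (13.1% and 13.7%) and 11 and 5 for GFP-crush (14.5% and 9.34%). For α9k1-crush versus α9k1-naive, array weights gave 2 and 4 (7.63% and 8.57% of all genes), and quantile normalization and the removal of low genes each gave 2 and 1 (4.45% and 5.4%, 5.58% and 6.8%). Leaving out each library gave 2 to 5 and 7 to 11, 0 and 0, 2 to 6 and 3 to 10, 0 to 2 and 0 to 3, 0 and 0 (9.28% to 11.8% and 12.5% to 18.4%, 0.459% to 0.998% and 0.0158% to 0.325%, 3.52% to 8.17% and 8.37% to 17%, 2.17% to 6.14% and 2.97% to 7.66%, 0.538% to 2.12% and 0.348% to 1.37% of all genes). The lowest count of 2 in α9k1-naive came without GFP-crush replicate 3, that of 2 in GFP-crush without GFP-crush replicate 1 or GFP-naive replicate 2, and that of 3 without GFP-naive replicate 2.

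Libraries with the same replicate number were hardly more alike than others, which cannot exclude a shared batch or animal. Deviations from the group means correlated across genes at -0.27 to 0.15 (median 0.02) in 25 pairs with the same number and at -0.22 to 0.26 (median 0.00) in 109 others. With the replicate number as a block, counts were 3 and 5, 0 and 0, 4 and 9, 0 and 0, 0 and 0 with covariates (8.96% and 10.4%, 0.42% and 0.0317%, 6.88% and 14.8%, 1.23% and 1.39%, 0.15% and 0.0554% of all genes), and 14 and 10, 19 and 14, 6 and 12, 15 and 20, 12 and 3 without (17.3% and 29.6%, 29.5% and 28%, 11.6% and 20.7%, 26.2% and 25%, 21.4% and 14.1%).

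Where a gene passed in one of the fits, these signs turned among the early endosomal, recycling and synaptic Rabs and the genes called with covariates in the comparison concerned. For α9k1-crush versus GFP-crush without covariates, the log2FC was -0.38 for Rab11a, 0.26 for Rab14, 0.52 for Rab15, 0.38 for Rab37 and 0.29 for Rab3d, and with the replicate block without covariates it was the same for these and 0.19 for Rab5b. With the first component only it was -0.46 for Rab11a, 0.30 for Rab14 and 0.57 for Rab37. For α9k1-crush versus α9k1-naive, Rab23 was at 0.037, 0.063 and 0.082 and Rab3d at 0.31, 0.27 and 0.31 without covariates, with the first component only and with the block without covariates. In the last fit Rab6a was at 0.021 for α9k1-naive versus GFP-naive. Of the remaining Rab genes called without covariates, Rab34, Rab40c, Rab8a and Rab9 had the opposite sign with them for α9k1-crush versus GFP-crush, Rab11fip3, Rab28 and Rab40c for α9k1-crush versus α9k1-naive, and Rab40c and Rab6b in the interaction. The cause was not tested. Normalized values do not carry the depth of single genes.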
